A study of Mus musculus with 96 samples.

Results

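Among 44 single mouse embryonic fibroblasts (MEFs) on 1 plate, the 14 wells with the most Igf2 and H19 RNA were set against the 14 wells with the least. Reads of Igf2 and H19 in each MEF well were divided by the well's total over gene rows, with repeat and spike-in rows left out, to give CPM, reads of a gene scaled to a fixed library total. The wells were selected on the sum of the pair, and the 14 highest are called high wells, the 14 lowest low wells, and the 16 between them middle wells. The choice thus rests on measured Igf2 and H19, whose levels are given below as a description. The last high well, MEF replicate 76, had 659 CPM of the pair and the next, MEF replicate 63, had 629. The last middle well, MEF replicate 81, had 119 CPM and the first low well, MEF replicate 92, had 114.

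The series held 96 wells of 1 library, of which 48 were labelled as embryonic stem (ES) cells, 44 as MEFs and 4 as negative controls. MEFs are connective tissue cells grown out of mouse embryos. All 28 wells came from MEFs kept in DMEM with 10% serum, antibiotics, a glutamine supplement and mercaptoethanol, and no treatment, genotype, strain, embryo age or passage is named for them in the labels. The assay, single-cell tagged reverse transcription (STRT), tags each well's cDNA with a barcode and sequences only transcript 5′ ends, so a read count does not grow with transcript length. Separate cultures are not named, so cells of a group are cells of 1 sample, no p-value was computed, and the spread given is the SD over cells.

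The labels also name R1, an ES cell line, as the source line of these wells, which conflicts with the fibroblast label. All 6 fibroblast markers (Col1a1, Col1a2, Fn1, Vim, Thy1 and Pdgfra) were read in both groups, and their sum ran from 5876 CPM over a median of 21618 to 64212 in high wells and from 6187 over 16529 to 49424 in low wells. The sum of 5 ES cell markers had a median of 19.1 CPM in high wells and 31.2 in low wells, and Nanog had no read in the 28 wells. Markers of skeletal muscle (Myod1, Myog, Myf5, Pax7) and mesothelium (Wt1, Upk3b, Msln) had no read in either group. Of 5 macrophage and blood markers, Cd68, Lyz2 and Tyrobp had no read and the sum did not exceed 24.7 CPM in a high well and was 0 in every low well.

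Igf2 encodes insulin-like growth factor 2, a fetal growth factor that acts through the receptors Igf1r and Insr and is cleared by Igf2r. H19 lies beside it and gives a long noncoding RNA that carries miR-675 in its first exon. Both are imprinted: a CTCF-bound control region lets the maternal copy make H19 and the paternal copy make Igf2, with enhancers that both genes share. They are highly expressed in fetal mesoderm and shut down in most tissues after birth. In the mouse annotation (GENCODE, GRCm38) both lie on the minus strand of chromosome 7, Igf2 at chr7:142650766-142666816 and H19 at chr7:142575529-142578143, 72.6 kb apart.

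The mature arms of miR-675 are shown because its hairpin lies within H19, which chose the wells, and has a row of its own in the table. The RefSeq sequences (GRCm38.p6) are written from the 5′ end with the seed, bases 2 to 8, in capitals, and the arms do not share a seed.
mmu-miR-675-5p: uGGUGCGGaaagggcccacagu
mmu-miR-675-3p: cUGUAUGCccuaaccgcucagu
The Mir675 row was read in 5 high wells, at up to 72.1 CPM, and had 0 reads in the middle and low wells. Its difference is not independent of the choice of wells, since this row lies within H19 on the same strand, and its reads cannot be told apart from 5′ ends within the H19 transcript.

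Promoter windows of 3 genes are shown, each from 250 bases before to 50 after a start site in RefSeq (GRCm38.p6), because Igf2 chose the wells, Itga11 and Plagl1 were among the 12 genes that differed most, and the Plagl1 protein is known to bind GGGGCCCC. The capitals mark the first 6 letters of that site, GGGGCC, or its reverse complement GGCCCC. Igf2 is at chr7:142657447-142657746 on the minus strand, Plagl1 at chr10:13090582-13090881 on the plus strand and Itga11 at chr9:62677605-62677904 on the plus strand.
Igf2: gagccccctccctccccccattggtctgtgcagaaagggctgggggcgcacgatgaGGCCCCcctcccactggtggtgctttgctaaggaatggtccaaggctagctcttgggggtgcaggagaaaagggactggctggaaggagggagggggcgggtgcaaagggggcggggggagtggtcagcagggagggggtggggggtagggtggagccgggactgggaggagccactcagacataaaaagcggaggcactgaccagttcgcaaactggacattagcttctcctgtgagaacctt
Plagl1: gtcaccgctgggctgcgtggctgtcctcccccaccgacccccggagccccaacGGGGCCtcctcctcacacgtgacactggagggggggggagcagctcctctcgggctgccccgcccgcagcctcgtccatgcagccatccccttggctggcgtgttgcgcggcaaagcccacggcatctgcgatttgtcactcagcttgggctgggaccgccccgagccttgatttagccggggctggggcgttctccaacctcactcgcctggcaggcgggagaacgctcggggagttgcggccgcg
Itga11: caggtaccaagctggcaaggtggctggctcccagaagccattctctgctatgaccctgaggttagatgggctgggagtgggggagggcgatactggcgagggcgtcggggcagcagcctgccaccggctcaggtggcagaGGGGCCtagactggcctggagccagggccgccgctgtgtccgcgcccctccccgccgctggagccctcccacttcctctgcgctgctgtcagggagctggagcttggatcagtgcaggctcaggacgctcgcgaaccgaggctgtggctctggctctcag
GGGGCC on either strand occurred in 24.97% of 32851 such windows of all genes and in 2 of the 4 windows of Igf2. Windows were available for 9 of the 12 leading genes higher in high wells and 11 of the 12 lower. It occurred in 4 of 12 windows of those higher (Fubp3, Itga11, Plagl1 and Tulp3) and 4 of 13 of those lower (Cd151, Gigyf2 and Ola1). The full GGGGCCCC, which contains both shorter forms, occurred in 1.08% of all windows and in 0 of the available windows of Igf2 and these leading genes. These are matches of letters and do not show binding.

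Single fibroblasts differed widely in the pair, and high wells differed among themselves in which of its genes they held. Igf2 ran from 64.2 CPM over a median of 2055 to 4967 in high wells and from 0 over 7.19 to 91.8 in low wells. H19 ran from 6.89 over 603 to 7056 in high wells and from 0 over 8.45 to 32.1 in low wells. The groups overlap in each gene taken alone, because the sum chose them. Of the 14 high wells, 13 lay above the highest low well in Igf2 and 10 in H19.

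The balance of the pair ran from mostly Igf2 to mostly H19. MEF replicate 88 held much of both RNAs, 4967 CPM of Igf2 and 4221 CPM of H19, and MEF replicates 51 and 80 also held at least 2041 CPM of each. MEF replicates 87 and 64 held 3847 and 2155 CPM of Igf2 with 9.77 and 6.89 CPM of H19, and Igf2 was over 10 times H19 in 6 high wells. MEF replicate 60 had the reverse order, with 7056 CPM of H19 and 947 CPM of Igf2, and MEF replicate 56 had 1577 CPM of H19 and 64.2 CPM of Igf2. Igf2 exceeded H19 in 10 high wells and H19 exceeded Igf2 in 4. Over all 44 wells the pair went together only loosely, with Pearson's r of 0.40 and Spearman's rho of 0.34 for log2(CPM + 10), and 0.46 and 0.43 after each well was thinned to 60000 gene reads. These wells share a library and differ in depth, and the coefficients are a description.

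**Figure D1:**
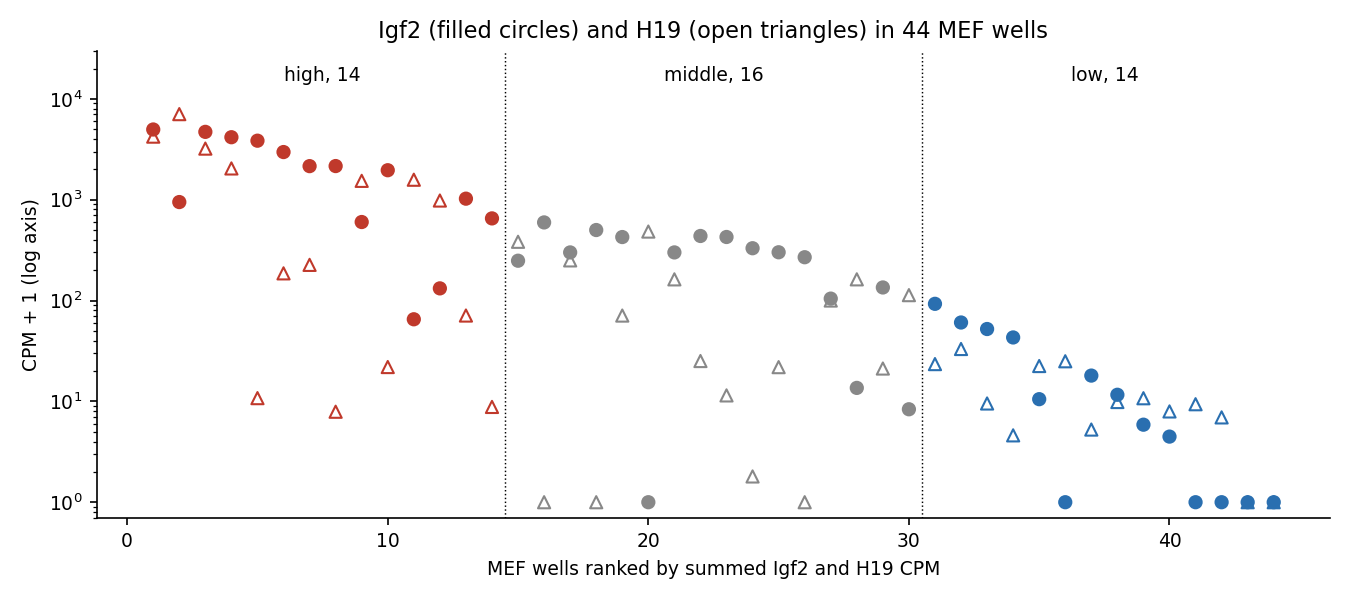
CPM + 1 (log axis) of Igf2 (filled circles) and H19 (open triangles) in each of the 44 MEF wells, ranked by the sum of the pair, with dotted lines between the 14 high (red), 16 middle (grey) and 14 low (blue) wells. Several high wells hold one RNA with little of the other, such as the fifth well at 3847 CPM of Igf2 and 9.77 CPM of H19.

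Ranking the wells on 1 gene leaves the other free of the choice. In the 14 wells with the most Igf2, H19 had a median of 128 CPM and a pooled level of 1311 CPM (summed reads over summed gene reads), against 8.61 and 44.5 CPM in the 14 wells with the least. In the 14 wells with the most H19, Igf2 had a median of 449 CPM and a pooled level of 1562 CPM, against 46.6 and 484 CPM in the 14 with the least. The ranges overlapped in both readings, since H19 ran from 0 to 7056 CPM in the wells with the most Igf2 and reached 482 CPM in those with the least.

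Low wells held no more of the pair than wells of another cell type on the plate. The pooled level in low wells was 33.97 CPM of Igf2 (exact Poisson interval 30.2 to 38.1, counting error only) and 12.7 CPM of H19 (10.4 to 15.3), against 61.6 and 39.95 CPM in the 48 ES cell wells. In high wells it was 2082 and 1475 CPM, and in middle wells 285 and 93.5 CPM. Igf2 was read in 9 low wells and H19 in 12, and after thinning in 4 and 5. MEF replicates 53 and 82 had 0 reads of both. The 4 negative control wells held 22 reads of Igf2 and 13 of H19 among 12527 gene reads, so a few reads of both genes also occurred in wells without a cell.

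High wells were also richer libraries. Gene reads ran from 157772 over a median of 988760 to 1263630 in high wells and from 63938 over 473888 to 1471180 in low wells. A median high well had a read for 6629 genes and a median low well for 4650.5, and at an equal 60000 gene reads, which kept all wells, 5220 against 3905. Gene reads per spike-in read had medians of 188 and 128, and ribosomal protein genes took 13.2% and 16.9% of gene reads. Fewer than 300000 gene reads were present in 1 high and 5 low wells. All 5 MEF wells of plate row H were high wells, which were 6 of the 14 in rows A to D and 8 in rows E to H, against 9 and 5 low wells. The part of depth, complexity and plate position in the differences below was not tested. Values at equal reads or within plate rows are given for some of the genes, and others near 2-fold also fell under it in the upper or the lower rows taken apart.

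**Figure D2:**
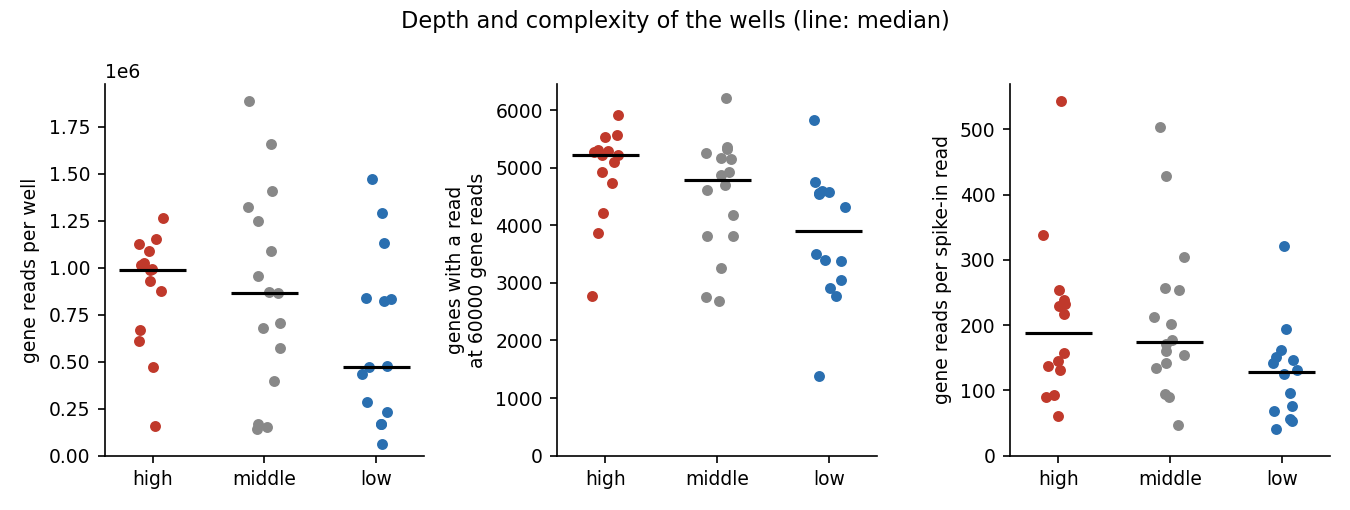
Gene reads per well, genes with a read at 60000 gene reads and gene reads per spike-in read in high, middle and low wells, with 1 point a well and a line at the median. The medians fall from high to low wells in all 3 measures, such as 5220, 4787.5 and 3905 genes at equal reads, while the ranges overlap.

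Most tested genes lay higher in high wells. The measure is the difference, high minus low, between the group means of log2(CPM + 10), in which every well weighs the same. Over 8605 genes with at least 100 reads in the 28 wells and reads in at least 4 wells of the higher group, the median difference was 0.33 and 72.8% lay above 0. A gene thus entered through the group in which it was higher, and high wells had more genes detected. The part of this filter in these values and in the counts below was not tested. At least 2-fold higher in high wells were 991 genes (11.5%), and 78 (0.906%) were at least 2-fold higher in low wells. With the all-gene median subtracted the counts became 374 (4.35%) and 291 (3.38%), so a gene near 0.33 lies at the general shift. That shift was 0.29 at equal reads, 0.59 on the spike-in scale and 0.22 without wells under 300000 gene reads.

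Elastin had the largest difference of the leading genes higher in high wells. Elastin, Eln, forms the core of elastic fibres. It ran from 1.63 CPM over a median of 713 to 6312 in high wells and from 0 over 8.21 to 247 in low wells. MEF replicates 77, 60, 80, 72, 67, 51 and 64 held 1119 to 6312 CPM, while MEF replicates 56, 75, 78, 87 and 88 held 18.3 CPM or less, within the range of the low wells. The difference was 4.03, with an SD over cells of 3.63 in high and 1.33 in low wells, 4.27 at equal reads, 4.83 in plate rows A to D alone and 3.35 in rows E to H alone. MEF replicate 88, the well with the most Igf2 and H19 together, was the high well with the least Eln.

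Itga11, a collagen-binding integrin chain, was more even among high wells. It ran from 1.78 CPM over 226 to 786 in high wells and from 0 over 0.388 to 83.1 in low wells, and 12 of 14 high wells lay above the highest low well. The difference was 3.68 (SD 1.65 in high and 0.99 in low wells), 3.55 at equal reads. The exceptions were MEF replicates 51 and 87, with 40.4 and 1.78 CPM. Eln and Itga11 kept differences of at least 3.71 and 3.53 when any 1 well was left out.

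The extracellular matrix list had 29 tested members, of which 11 were at least 2-fold higher and 3 at least 2-fold lower in high wells. The shares over all genes were 11.5% and 0.906%, and the list median was 0.81, against 0.33. The members higher were Eln, the collagen chains Col6a1 (2.28), Col6a2 (1.05), Col12a1 (1.30) and Col3a1 (1.06), the microfibril and elastic fibre genes Mfap2 (1.87), Efemp2 (1.82), Fbln5 (1.78) and Fbn1 (1.37), the proteoglycan Bgn (1.63) and the crosslinking enzyme Loxl1 (1.12). Efemp2, needed to assemble elastic fibres, was read in all 14 high wells, at 56.7 to 695 CPM, and 12 of them lay above the low median of 136 CPM. Fbln5 differed by 3.06 in plate rows A to D and by −0.11 in rows E to H, Mfap2 by 0.92 and 2.86, Col6a2 by 0.12 and 1.98, Col3a1 by 0.42 and 2.21, and Loxl1 by 1.96 and 0.09. The major collagen gene Col1a1 differed by 0.35 and Fn1, fibronectin, by 0.60.

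Matrix genes higher in low wells were the basement membrane collagen Col4a1 (−1.35), the proteoglycan Dcn (−1.25) and the glycoprotein Tnc (−1.08). Col4a1 ran from 8.25 CPM over 210 to 2228 in high wells and from 0 over 967 to 3671 in low wells. Dcn was read in 2 high and 6 low wells, and Tnc lay at −0.74 without MEF replicate 56. At equal reads the list counts were 10 and 3, with 11.6% and 1.3% of all genes. With the all-gene median subtracted they were 7 and 3, against 4.35% and 3.38% of all genes. Without wells under 300000 gene reads they were also 7 and 3, with a list median of 0.44 against 0.22 over all genes. The counts over all genes for that choice differ from those above and are given at the end. Without plate row H the list counts were 12 and 1, with a list median of 0.67 against 0.40 over all genes. For this choice only the medians are set against all genes.

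**Figure D3:**
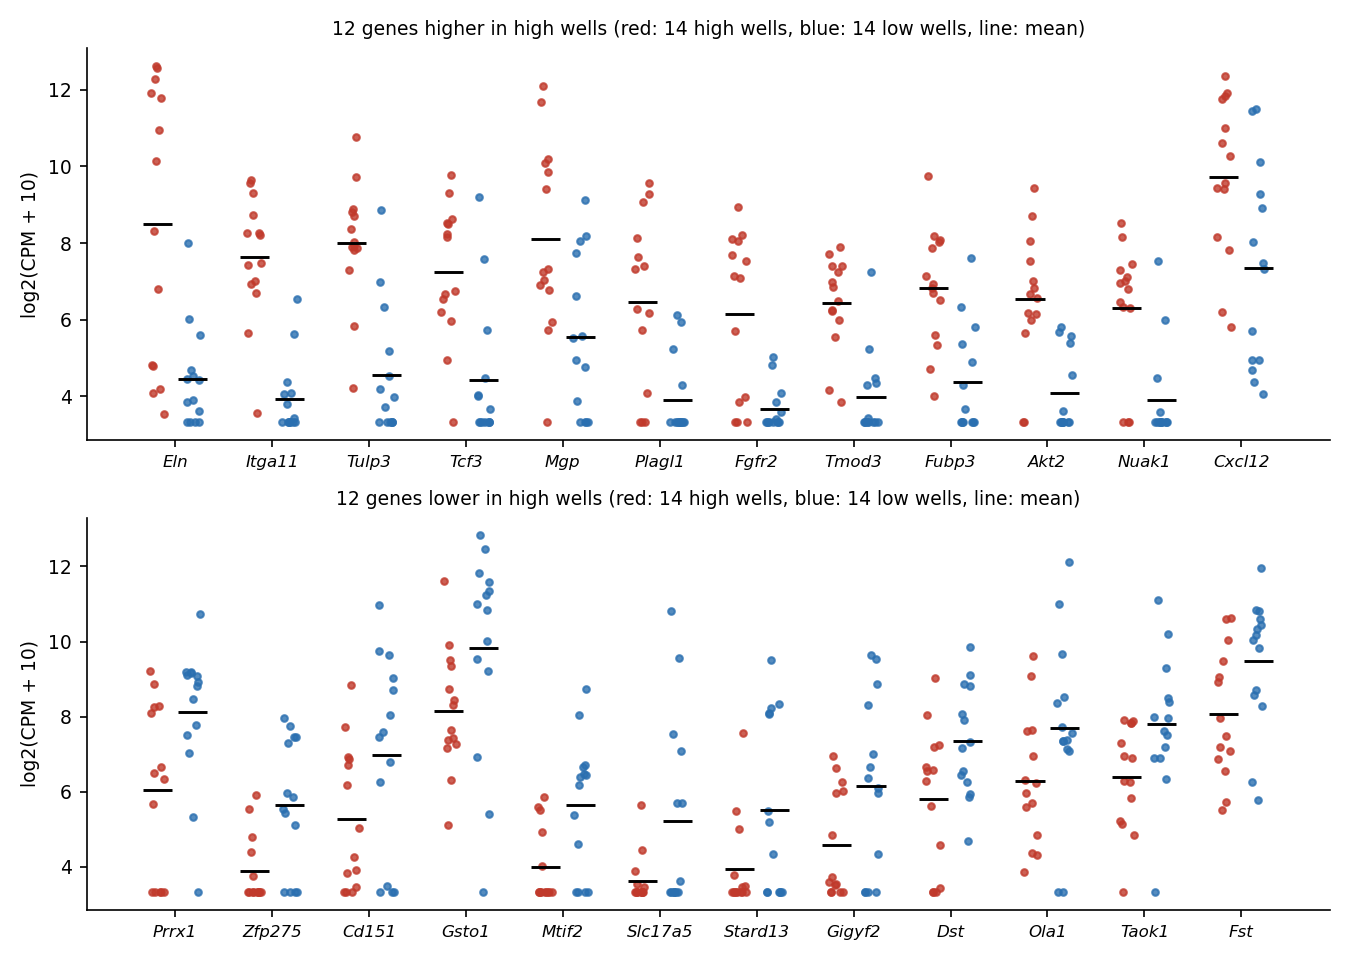
log2(CPM + 10) in each of the 14 high (red) and 14 low (blue) wells, with a line at the mean, for the 12 genes with the largest positive and the 12 with the largest negative difference under the naming rule. Eln is split among high wells, from 1.63 to 6312 CPM, whereas Itga11 is at 40.4 CPM or more in 13 of them.

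The other leading genes were of mixed roles. Mgp, the matrix Gla protein that restrains calcification, differed by 2.56, with medians of 145 CPM in high and 28.5 in low wells, at 1.05 within rows A to D and 3.73 within rows E to H. The chemokine gene Cxcl12 had medians of 984 and 159 CPM and differed by 2.38. Fgfr2, a fibroblast growth factor receptor, had medians of 129 and 0 CPM and differed by 2.49, with 9 of 14 high wells above the highest low well.

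Tulp3, which carries receptors into cilia, differed by 3.46 and was read in all 14 high wells (8.68 to 1732 CPM) and 8 low wells (13 and 5 at equal reads). One low well, MEF replicate 91, held 457 CPM of Tulp3. Tcf3, which encodes the E proteins E12 and E47, differed by 2.82 (4.03 in rows A to D and 1.26 in rows E to H), the actin-capping Tmod3 by 2.46, the single-strand binding Fubp3 by 2.46 and the kinase Nuak1 by 2.40. Each of these 12 genes stayed at least 2-fold higher when any 1 well was left out.

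Among imprinted genes, Plagl1 had the largest difference apart from the pair. Of 75 other imprinted genes with a row, 39 were tested, 3 were at least 2-fold higher and 1 at least 2-fold lower in high wells, against 11.5% and 0.906% of all genes. Their median difference was 0.44 (0.41 at equal reads), against 0.33 (0.29) over all genes. Of the 39, 31 lay above 0, against 72.8% of all genes. The 39 include Mir675, which lies within H19 and is not independent of the choice of wells. Plagl1 encodes a zinc finger protein also called Zac1, which is made from the paternal copy and is known to act on Igf2 and H19 as part of a network of imprinted genes. It ran from 0 CPM over a median of 109 to 744 in high wells and from 0 over 0 to 59.5 in low wells, and 9 high wells lay above the highest low well. The difference was 2.56 (SD 2.25 in high and 1.05 in low wells), 2.40 at equal reads, 3.53 in rows A to D and 1.74 in rows E to H. It was read in 11 high and 4 low wells, or 10 and 2 at equal reads.

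Over the 44 wells, Spearman's rho of Plagl1 was 0.60 with Igf2 and 0.17 with H19, or 0.50 and 0.24 at equal reads, where the wells share a library and sparse counts limit the measure. The sum chose the high wells, so one with little H19 must hold much Igf2. The high wells with the most Plagl1, MEF replicates 75, 76 and 64 at 744, 608 and 530 CPM, had 20.9, 7.81 and 6.89 CPM of H19. MEF replicates 88 and 60 held 270 and 158 CPM of Plagl1 at 4221 and 7056 CPM of H19. MEF replicates 72, 78 and 80 had no Plagl1 read, at H19 levels of 1537, 980.5 and 2041 CPM, and MEF replicate 80 held 4164 CPM of Igf2. Wells with and without Plagl1 thus occurred at high levels of either gene. For Eln the coefficients were 0.47 with Igf2 and 0.38 with H19.

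**Figure D4:**
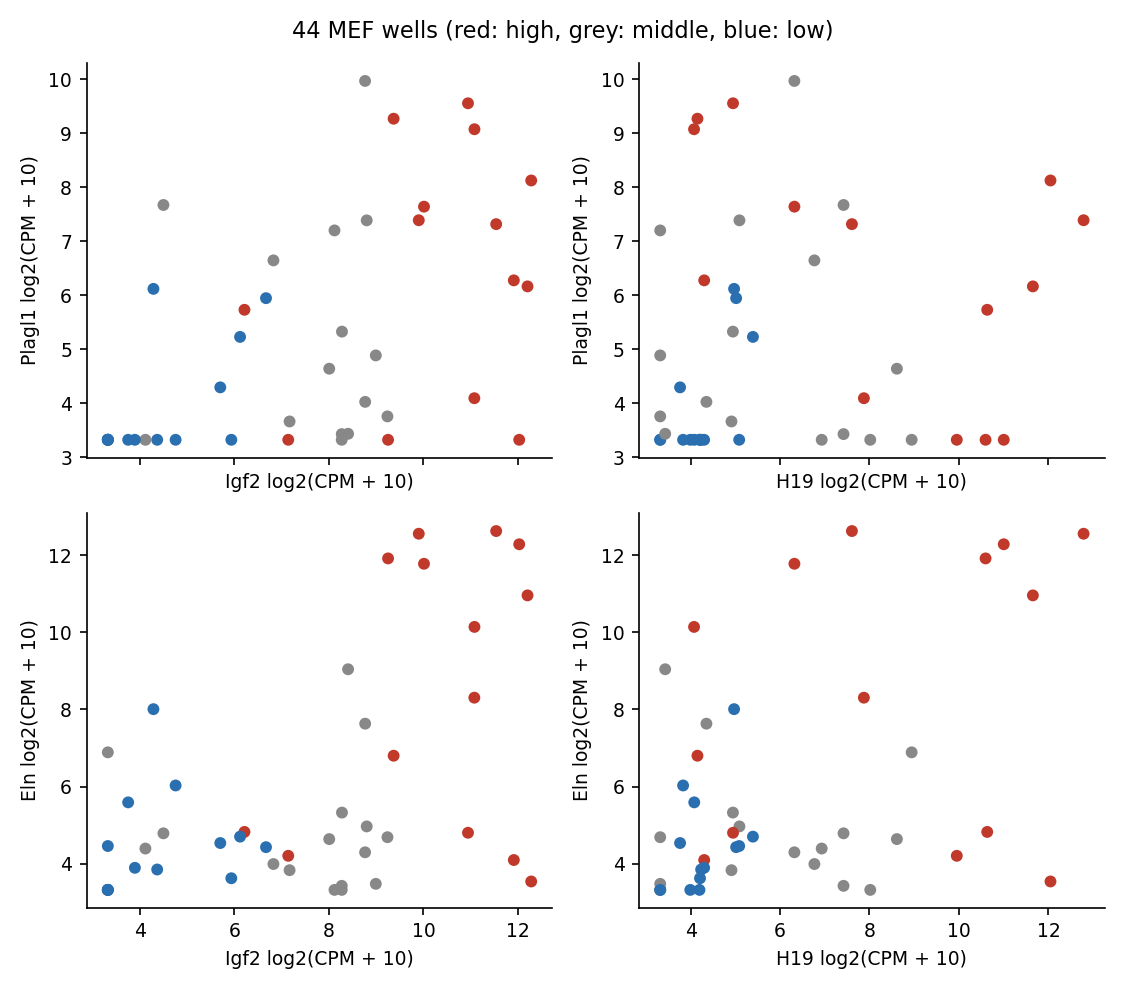
log2(CPM + 10) of Plagl1 (top) and Eln (bottom) against Igf2 (left) and H19 (right) in the 44 MEF wells, coloured red for high, grey for middle and blue for low wells. The red points with the most Plagl1 lie at the left of the H19 panel and others at 270 and 158 CPM lie at its right, while red points high in Eln lie on both sides of it.

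The other imprinted genes past 2-fold were near the limit or sparse. Kcnq1ot1, the noncoding RNA of the neighbouring imprinted domain, differed by 1.05, with medians of 47.4 and 9.96 CPM, and lay at 0.89 without MEF replicate 89. It fell under 2-fold with any of 12 single wells left out. Trappc9 differed by 1.14 and lay at 0.97 without MEF replicate 78, with 2 single wells that took it under 2-fold. Dcn, which is also a matrix gene, was the imprinted gene lower in high wells.

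Imprinted genes that did not pass 2-fold lay on both sides of 0. The paternally expressed Mest differed by 0.98 and was read in 8 high and 4 low wells. Meg3 and Rian, noncoding RNAs of the Dlk1 domain, differed by 0.75 and 0.88 with reads in all 28 wells, and the growth regulator Dlk1 by 0.44. The growth-restraining adaptor Grb10 differed by 0.69, with near-equal medians of 1191 and 1114 CPM, Ndn by 0.56, the cell cycle inhibitor Cdkn1c by 0.34 and Gnas by 0.13. Peg3 differed by 0.00. Lower in high wells, though under 2-fold, were Zdbf2 (−0.78), Nnat (−0.54), Peg10 (−0.34), Ddc (−0.26), Blcap (−0.10) and Mirg (−0.06). The sign turned between plate rows for several of them, such as Dlk1 from −0.20 in rows A to D to 1.26 in rows E to H, Peg3 from −0.66 to 1.04, Cdkn1c from 1.12 to −0.75, Gnas from 0.46 to −0.17 and Peg10 from 0.27 to −0.90.

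Genes around the pair passed 2-fold at a share near that of all genes. Of 10 tested neighbours on distal chromosome 7 outside the imprinted pair, 1 was at least 2-fold higher, against 11.5% of all genes. Their median difference was 0.13, against 0.33. In rows A to D the count was 0 and the median 0.09, and in rows E to H they were 3 and 0.70. Of all 8605 genes, 1796 were at least 2-fold higher in rows A to D, with a median of 0.39. In rows E to H 1695 were, with a median of 0.36. The 1 neighbour past 2-fold over all rows was the leukocyte-specific Lsp1 (1.07). It lay at 0.76 without MEF replicate 80 and fell under 2-fold with any of 5 single wells left out. The lysosomal protease gene Ctsd differed by 0.55 and the tetraspanin gene Cd81 by 0.23, both read in all 28 wells. Of 19 tested genes for CTCF, cohesin and other imprint regulators, 4 were at least 2-fold higher, namely Plagl1 itself, the imprint-maintaining zinc finger gene Zfp445 (1.37), the cohesin subunit Smc1a (1.17) and the Polycomb methyltransferase Ezh2 (1.12), against 11.5% of all genes. The count was 2 without MEF replicate 80 or 89. Ctcf, whose protein binds the control region, differed by −0.77, with medians of 4.34 CPM in high and 36.1 in low wells.

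In the main comparison, receptors of the growth factor did not pass 2-fold, and the share of signalling genes that did was near that of all genes. The signalling receptor Igf1r had medians of 293 and 236 CPM and differed by −0.04 (SD 1.11 in high and 1.13 in low wells), and the clearance receptor Igf2r had medians of 295 and 273 CPM and differed by 0.87, or 1.48 on the spike-in scale, where the general shift was 0.59. In both genes the ranges of the groups overlapped. Of 31 tested genes for receptors and signalling, 4 were at least 2-fold higher and 0 lower, against 11.5% and 0.906% of all genes, with a median of 0.52. They were the kinase gene Akt2 (2.45), the mTORC2 subunit Rictor (1.36), the PI3 kinase subunit Pik3ca (1.12) and the exchange factor Sos1 (1.02), which lay at 0.67 at equal reads and 0.61 in rows E to H. The count became 2 without MEF replicate 53 or 82 and 7 without MEF replicate 83, and it was 2 with the all-gene median subtracted. In rows A to D it was 7, against 1796 of 8605 genes, and in rows E to H 10, against 1695. On the spike-in scale it was 14, against 2085. Without plate row H it was 11, with a list median of 0.70 against 0.40 over all genes.

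Akt2 had the largest difference of this list. It ran from 0 CPM over a median of 88.2 to 686 in high wells and from 0 over 0 to 45.8 in low wells, and 11 high wells lay above the highest low well. Its paralog Akt1 differed by 0.07. Of 9 tested binding proteins and proteases of the growth factor, Igfbp2 (1.24) and Igfbp5 (1.19) were at least 2-fold higher, against 11.5% of all genes. Igfbp5 was −0.64 in rows A to D and 3.15 in rows E to H, and without MEF replicate 88 Igfbp2 lay at 0.82 and Igfbp5 at 0.65, leaving 0 genes of the list. The count was 1 without MEF replicate 56, 60 or 77.

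The mesenchymal list was divided, with 5 of 19 tested members at least 2-fold higher and 1 at least 2-fold lower. The shares over all genes were 11.5% and 0.906%, and the list median was 0.02, against 0.33. Higher were the transcription factor genes Snai1 (1.72), Twist2 (1.22) and Prrx2 (1.15), and Eng (1.11) and Pdgfrb (1.05). Twist2 lay at 0.18 in rows A to D and 2.14 in rows E to H, Prrx2 at 0.62 and 1.33, and Pdgfrb at 0.11 and 2.29, with −0.18 by pooled CPM. The count was 3 without MEF replicate 70, 80, 83 or 88. With the all-gene median subtracted the list had 1 member at least 2-fold higher and 6 at least 2-fold lower, against 4.35% and 3.38% of all genes.

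Prrx1, a homeobox gene of limb and craniofacial mesenchyme, was lowest of all named genes in high wells. It ran from 0 CPM over a median of 76.3 to 579 in high wells and from 0 over 460 to 1700 in low wells, and 12 low wells lay above the high median. It had no read in MEF replicates 60, 78, 80, 88 and 89 among high wells and in MEF replicate 53 among low wells. The difference was −2.08 (SD 2.32 in high and 1.88 in low wells), −1.98 at equal reads, −2.02 in rows A to D and −1.79 in rows E to H. Its paralog Prrx2 differed the other way. Vim, the fibroblast filament gene vimentin, differed by −0.71, from 667 to 4881 CPM in high and 2212 to 8130 CPM in low wells, and 13 low wells lay above the high median of 2445 CPM.

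Genes with the next lowest values in high wells were Zfp275 (−1.77), the tetraspanin Cd151 (−1.71), the glutathione transferase Gsto1 (−1.67), the mitochondrial initiation factor Mtif2 (−1.65) and the lysosomal transporter Slc17a5 (−1.60). Gsto1 had medians of 248 CPM in high and 1937 in low wells, and Cd151 differed by −2.58 in rows A to D and −0.16 in rows E to H. The others were Stard13 (−1.56), Gigyf2 (−1.56), the cytolinker gene Dst (−1.55), Ola1 (−1.41), Taok1 (−1.40) and Fst (−1.39). In rows E to H Slc17a5 lay at −0.65, Dst at −0.60 and Taok1 at −0.88, and in rows A to D Stard13 lay at −0.88 and Ola1 at −0.47. Fst encodes follistatin, which binds activin. It ran from 35.9 CPM over 206 to 1574 in high wells and from 44.7 over 1096 to 3977 in low wells, with a difference of −0.25 in rows A to D and −2.55 in rows E to H. Each of the 12 stayed at least 2-fold lower when any 1 well was left out.

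**Figure D5:**
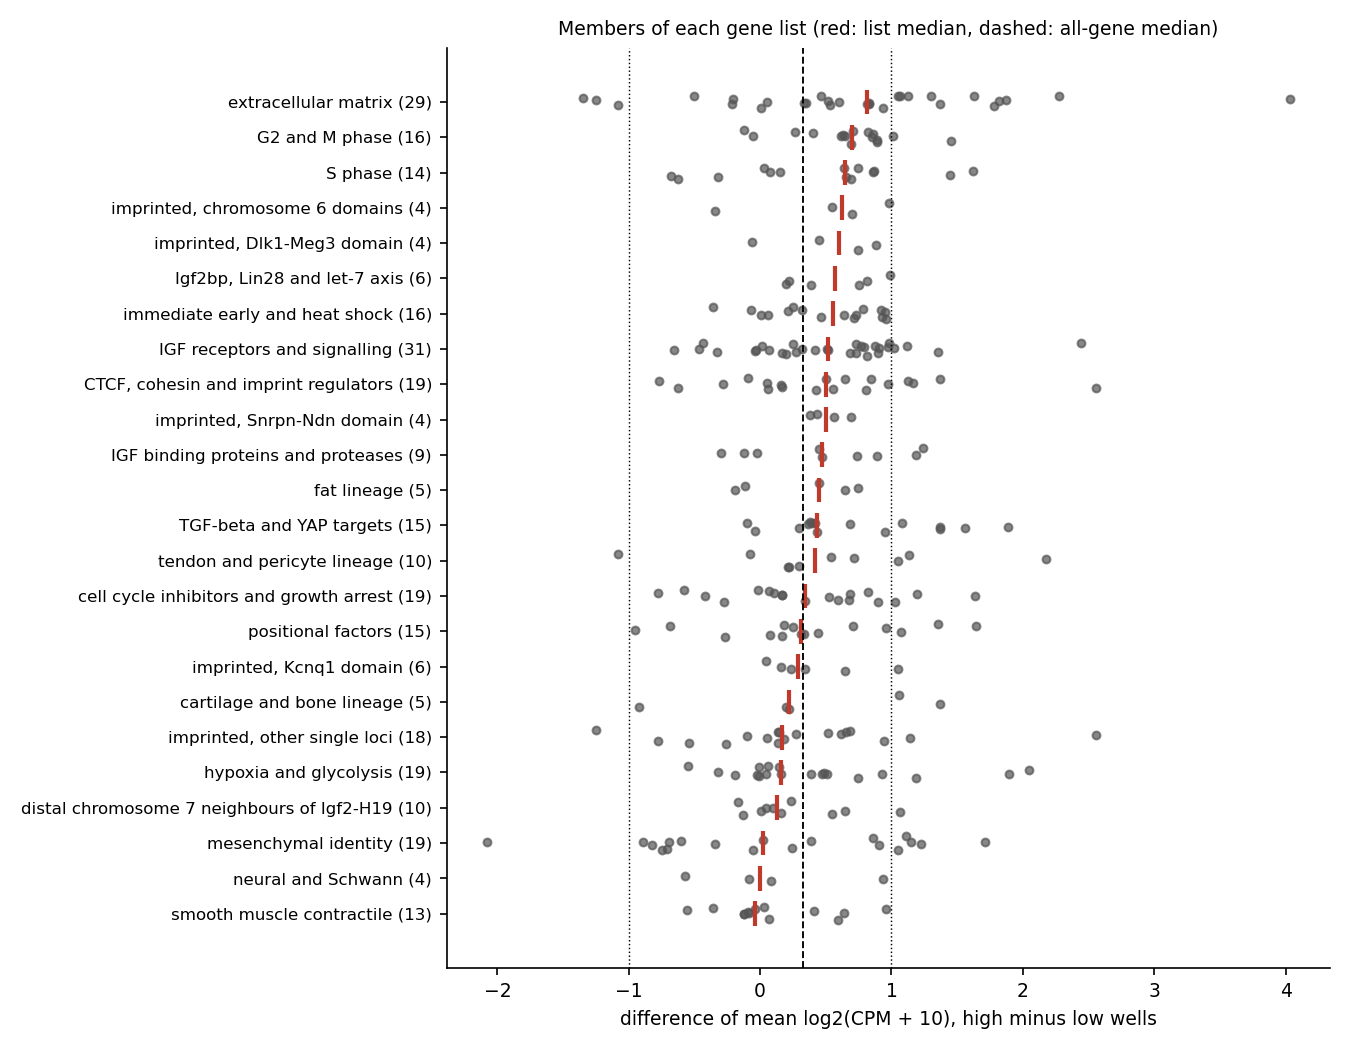
Difference of mean log2(CPM + 10), high minus low wells, for each tested member of the lists with at least 4 tested members, with a red mark at the list median, a dashed line at the all-gene median of 0.33 and dotted lines at 2-fold. The matrix list reaches from −1.35 to 4.03, while most other list medians lie near the dashed line.

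Genes of signalling by TGF-beta and YAP had 5 of 15 tested members at least 2-fold higher and 0 lower, against 11.5% and 0.906% of all genes. The list median was 0.43, against 0.33 over all genes. Among the members past 2-fold were the SMAD corepressor gene Skil (1.56), Amotl2 (1.37), Ltbp2 (1.37) and Tgfbi (1.08). Skil ran from 0 CPM over 68.2 to 209 in high wells and from 0 over 5.07 to 113 in low wells. Amotl2 lay at 2.41 in rows A to D and 0.23 in rows E to H, and Ltbp2 at 2.59 and 0.01. The list median was 1.12 in rows A to D and 0.23 in rows E to H, against 0.39 and 0.36 over all genes. Contractile genes had 0 of 13 past 2-fold in either direction over all rows, against 11.5% and 0.906% of all genes. Their median was −0.04. In rows A to D 6 were at least 2-fold higher and 0 lower, against 1796 and 241 of 8605 genes. In rows E to H 0 were higher and 4 lower, against 1695 and 485. The medians of this list were 0.83 in rows A to D and −0.77 in rows E to H.

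Positional and lineage lists were small, and several of their genes rested on single wells or on the upper or lower rows of the plate. Of 15 tested positional factors 3 were at least 2-fold higher, Tbx15 (1.64), Hoxa5 (1.36) and Lhx9 (1.07), against 11.5% of all genes, with a median of 0.32. Tbx15 lay at 2.50 in rows A to D and 0.52 in rows E to H, Hoxa5 at 2.23 and 0.62, and Lhx9 at 1.37 and 0.80. With wells ranked on H19 alone Hoxa5 and Lhx9 lay at −0.40 and −0.30. In the tendon and pericyte list 3 of 10 were at least 2-fold higher, Cspg4, Fmod and Pdgfrb, and 1, Tnc, was at least 2-fold lower, against 11.5% and 0.906% of all genes. The count of those higher was 1 without MEF replicate 78 or 88. The pericyte proteoglycan gene Cspg4 differed by 2.18 and was read in 11 high and 2 low wells (8 and 0 at equal reads), with 10 high wells above the highest low well. Fmod, a tendon proteoglycan gene, had 0 reads in low wells and was read in 5 high wells, where it reached 7662 CPM. It differed by 0.21 in rows A to D and 1.82 in rows E to H.

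Over all rows, cell cycle genes had medians above the general shift, with levels that turned on few wells. Among 14 tested genes of S phase, 2 passed 2-fold upward, Ccne1 (1.62) and Tipin (1.44), against 11.5% of all genes. The list median was 0.65, while the replication clamp gene Pcna differed by −0.32. Without MEF replicate 80 the count was 1. In rows A to D 6 of the S phase genes passed upward, with a median of 0.68, against 0.39 over all genes. In rows E to H 3 passed upward and 2 downward, with a median of 0.097, against 0.36. With wells ranked on Igf2 alone the S phase median was 0.32, against 0.35 over all genes. Of 16 tested for G2 and M phase 2 passed 2-fold upward, Cdk1 (1.45) and Bub1 (1.01), again against 11.5%. Their list median was 0.70. By pooled CPM, in which wells with more reads weigh more, 15 of the 16 passed, and the count over all genes is given at the end. Single wells can set this measure, since Bub1 reached 5565 CPM in 1 high well over a high-well median of 1.65 CPM. The list median by pooled CPM was 2.13, against 0.17 over all genes. In rows A to D 10 passed, with a median of 1.13, against 1796 of 8605 genes and a median of 0.39. In rows E to H 2 passed, with a median of 0.58, against 1695 of 8605 and 0.36. Over all rows the count for G2 and M phase was 9 without MEF replicate 50, a low well. It was 4 without MEF replicate 60, 72, 78 or 87, and 1 without any of 13 other wells. The summed level of the full list ran from 17.5 CPM over 104 to 8956 in high wells and from 0 over 55.5 to 7751 in low wells, so single wells with high levels of this list were present in both groups.

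Of 19 tested cell cycle inhibitors and arrest genes 3 passed 2-fold upward, Gas2 (1.64), Btg1 (1.19) and Gadd45b (1.03), against 11.5% of all genes, with a median of 0.34. Btg1 lay at 0.71 in rows A to D, and Gadd45b at −0.27 in rows E to H. Of 19 genes of hypoxia and glycolysis 3 were at least 2-fold higher, the lactate dehydrogenase gene Ldhb (2.05), Hif1a (1.89) and Aldoa (1.18), again against 11.5%, with a median of 0.16. Aldoa lay at 0.78 without MEF replicate 53. Immediate early and heat shock genes had 0 of 16 past 2-fold, again against 11.5%, and a median of 0.55. Among them Hspa1b (0.95) was read in 8 high and 0 low wells. Their count was 4 without MEF replicate 51 or 72, 3 without 70 or 77, and at least 1 without most other single wells. At equal reads it was 3, against 11.6% of all genes. In rows A to D it was 3, against 1796 of 8605 genes, and in rows E to H 6, against 1695.

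Genes that bind Igf2 RNA or belong to the Lin28 and let-7 axis had 0 of 6 tested members past 2-fold, against 11.5% of all genes. Their median was 0.57, led by Igf2bp2 (0.99) and Igf2bp3 (0.75). The count was 2 without MEF replicate 65 and 1 without any of 13 other wells. In the cartilage and bone list 2 of 5 were at least 2-fold higher, the cartilage collagen gene Col2a1 (1.37) and the bone matrix gene Spp1 (1.06), against 11.5% of all genes. Col2a1 lay at 0.99 without MEF replicate 78 and Spp1 at 0.74 without MEF replicate 77, with 13 single wells that took it under 2-fold. The fat lineage list had 0 of 5 past 2-fold, again against 11.5%, with a median of 0.44.

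Markers of further cell types were read in some wells of both groups. The sum of 4 neural and Schwann markers had a median of 65.5 CPM and a highest value of 296 in high wells, against 22.9 and 1741 in low wells. The endothelial markers Pecam1 and Cdh5 had no read in either group, while the other markers of this set of 4 were read in 5 high and 4 low wells, with sums of up to 41.9 and 59.8 CPM. The 4 epithelial markers summed to at most 4.34 CPM in a high and 8.70 CPM in a low well. The part of these markers in the differences was not tested.

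The genes whose level was most like the pair over all 44 wells were found by Spearman's rho with the summed CPM at equal reads. They were, in order, Tulp3 (0.73), the splicing factor gene Hnrnph1 (0.64), Itga11 (0.57), Eln (0.56), the splicing factor gene Luc7l2 (0.55), the chromatin remodelling subunit Smarce1 (0.54), Tmod3 (0.53), Tor1aip2 (0.52), Commd3 (0.52) and Rab34 (0.51). Over 3773 genes with a read in at least 22 wells the median rho was 0.08 and the 95th percentile 0.34. Depth is equal in this measure, but the wells still differ in genes detected, which itself had a rho of 0.44 with the pair.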

How the data were processed

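Single cells were profiled by STRT on 1 plate as 1 library. The authors deposited raw read counts per gene, repeat and spike-in row in each well. Per the file headers, these counts include reads with other mappings and gene variants at a locus share them. The authors also deposited another column of uniquely mapped reads over the plate, used here only for the share of unique reads per gene. Bowtie was the aligner per the submitters' processing notes. Its version, the build and the annotation are not given in the sources used here. No molecular identifiers are named, so intervals cover counting error only.

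CPM was computed over 21711 gene rows, leaving out 1217 repeat and 8 spike-in rows. No wells held identical values. The table was analysed with Python 3.11.15, numpy 2.4.6, pandas 2.3.3 and scipy 1.17.1. The calculation of the difference was run on simulated wells with known changes. Those wells had depths drawn at random for both groups and were not chosen by a gene, so that run checks the calculation only. Pooled levels carry exact Poisson intervals at the 95% level. Wells were thinned without replacement with seed 1.

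The wells and the 33 gene lists were chosen with earlier results of these data known. Leading genes were the 12 highest and 12 lowest differences among genes at least 2-fold the same way in pooled CPM, of 1 sign in the upper and lower rows of the plate taken apart, and with at least 50% unique reads. A rule also named 13 genes of the imprinted and receptor set, the 4 members of each list with the largest absolute difference, and the 10 genes most like the pair. Further list members, Vim and Ctcf among them, were named after their values were seen. A few genes that the rule named are not reported here. Alternatives were another summary, pseudocount, scaling, depth, ranking and choice of wells.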

Additional observations from a re-analysis of the deposited data

How the results depend on the processing

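No paired analysis was possible because the replicate numbers mark single wells and are not shared between groups. Counts below are genes at least 2-fold higher in high wells, then in low wells, against 991 and 78. They ranged from 837 to 1158 and from 65 to 107 when 1 well was left out. They were 1188 and 499 by pooled CPM, 3554 and 322 with a pseudocount of 1 CPM, 2085 and 11 by spike-in scaling, 781 and 156 when thinned and ranked again, and 505 and 180 when ranked on H19 alone. Plate rows A to D gave 1796 and 241 and rows E to H 1695 and 485, with fewer wells in each. As choices made after the data were seen, leaving out wells under 300000 gene reads gave 816 and 238, and subtracting the all-gene median gave 374 and 291. The cause was not tested. The list median of G2 and M phase was 2.13 by pooled CPM. With a pseudocount of 1 CPM, medians were 1.33 for immediate early and heat shock genes, 1.23 for fat lineage, 1.01 for tendon and pericyte lineage, and 1.67 for the Igf2-H19 domain, which is Mir675 alone. The median of positional factors was −0.21 when ranked on H19 alone, TGF-beta and YAP genes lay at 1.12 and immediate early genes at 0.067 in rows A to D, and chromosome 7 neighbours at 0.70 in rows E to H. The sign turned for Pdgfrb by pooled CPM (−0.18), Hoxa5 (−0.40) and Lhx9 (−0.30) when ranked on H19 alone, Igfbp5 in rows A to D (−0.64) and Gadd45b in rows E to H (−0.27). Of 67 named genes at least 2-fold different, 46 remained so without any 1 well. Low wells had fewer reads, so genes near 1 read in them are the least certain.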
